A study of Mus musculus with 12 samples.

Results

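Loss of the histone deacetylase Hdac3 was examined in LPS-stimulated mouse macrophages. The comparison set 3 arrays of Hdac3 -/- cells against 3 arrays of Hdac3 +/- cells, all given lipopolysaccharide (LPS) at 100 ng/ml for 4 h. These are 6 of the 12 arrays of the study, and the other 6 hold untreated cells of both genotypes. The members are the 19945 genes with a single symbol, each read from its brightest probe set. The cells were primary macrophages grown from bone marrow of C57BL/6 mice in medium with L929-conditioned supernatant, a source of the growth factor CSF1, and were used on the 7th day. The labels call the Hdac3 +/- cells wild type, although these controls keep only 1 intact allele. The sources used here do not give the age of the mice, the Cre driver or the deleted exons. The labels do not say whether replicates were separate animals, so a p-value covers no more than the spread among these arrays.

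Hdac3 removes acetyl groups from histones as the catalytic subunit of the NCoR/SMRT corepressor complex, which nuclear receptors and other factors bring to promoters and enhancers. LPS is sensed by Tlr4, which signals through Myd88 to NF-kB and MAP kinases and through Ticam1 to Irf3. Interferon beta made along the Ticam1 branch acts back on the cell through kinases and transcription factors that include Jak1, Tyk2, Stat2 and Irf9, and these induce the interferon-stimulated genes. NRF2 is a separate stress-responsive factor that drives glutathione synthesis and detoxification genes through antioxidant response elements.

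Values are log2 signals, on which a step of 1 is a 2-fold change. A difference is the mean of the -/- arrays minus the mean of the +/- arrays, given ± 1 SE of a limma model with n = 3 arrays per group. A gene counted as changed when its Benjamini-Hochberg adjusted p over all 19945 genes was under 0.05. Signals of different genes depend on their probes and are not compared with each other.

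Hdac3 itself read 8.90, 9.02 and 8.66 in the +/- LPS arrays 1, 2 and 3, and 6.91, 7.25 and 7.18 in the -/- LPS arrays. All -/- values lay below all +/- values, by 1.75 ± 0.15 on average (limma adjusted p = 5.9e-06). The position of its single probe set relative to the deletion is unstated. The genotypes were well separated as whole profiles. Arrays of 1 genotype correlated across all genes at 0.981 to 0.986 (+/-) and 0.989 to 0.994 (-/-), and arrays of different genotypes at 0.957 to 0.972. The +/- LPS array 1 stood apart in sex-linked genes. It read 7.93 for the Y-linked Eif2s3y and 3.20 for Xist, while the other 5 LPS arrays read 2.30 to 2.47 for Eif2s3y and 9.67 to 10.36 for Xist. The +/- untreated array 1 read alike (7.76 for Eif2s3y and 3.93 for Xist). The part of this difference in the results was not tested, and counts without the LPS array are given below. Of 13 macrophage surface and lysosomal genes 1 was higher and 2 lower, beside 9.69% and 5.99% of all genes. Csf1r (11.81 to 12.18 in the 6 arrays), Cd68 (12.37 to 12.48) and Itgam (11.22 to 11.69) did not pass the test, while Lyz1 was higher by 1.52 ± 0.33, and Fcgr1 (-2.41 ± 0.19) and Siglec1 (-1.03 ± 0.20) were lower.

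After LPS, 3127 genes (15.7% of those tested) differed between the genotypes, 1932 higher (9.69%) and 1195 lower (5.99%) in Hdac3 -/- cells. The genes lower in -/- cells moved further. Differences of at least 2-fold were found for 532 lower and 446 higher genes, of at least 4-fold for 138 and 45, and of at least 8-fold for 36 and 8. The groups did not overlap in 3037 of the 3127 genes, against 31.8% of all genes. The number of genes depended on single arrays. It was 3495 without +/- LPS array 1, and fell to 1685 without -/- LPS array 3, 1828 without +/- LPS array 3 and 2023 without -/- LPS array 1.

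**Figure D1:**
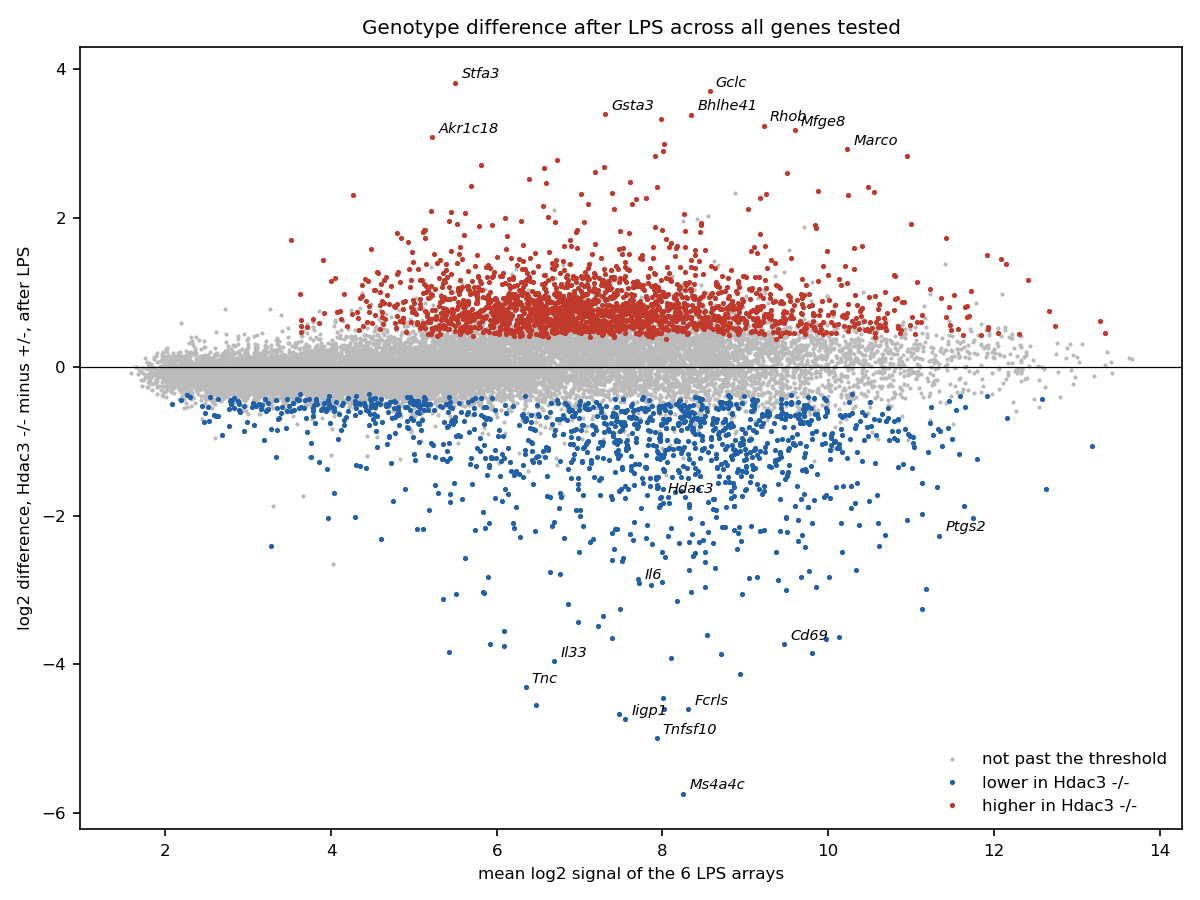
Genotype difference after LPS (vertical axis, log2, -/- minus +/-) against the mean log2 signal of the 6 LPS arrays (horizontal axis), 1 point per gene. Blue genes were lower and red genes higher at an adjusted p under 0.05. The extremes reach -5.74 for Ms4a4c and 3.82 for Stfa3, and the red genes of small size are densest at signals between 5 and 9.

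The excess of higher over lower genes depended on the scaling. In the deposited values 61.8% of the changed genes were higher. After quantile normalization this was 56.0% (1630 higher and 1282 lower) and after cyclic loess 46.8% (1266 and 1441). The deposited difference also moved with signal. Its median was -0.12 below a log2 signal of 5, 0.02 between 5 and 7, 0.18 between 7 and 9, and 0.14 above 9, and cyclic loess brought all of these within -0.03 to 0.01. The median over all genes was -0.04. Counts of whole gene groups can therefore move with the scaling, and many are given after cyclic loess too. The shares over all genes to set beside such counts are 9.69% higher and 5.99% lower. After cyclic loess they are 1266 and 1441 of 19945 genes.

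Promoter sequences are shown for 4 of the genes with the largest differences, 2 lower with matches to regulatory motifs, 1 lower with none and 1 higher with a match. They were chosen from the windows of 12 such genes, 6 lower and 6 higher, of which 8 held no match, 4 in each direction. Each window runs from 250 bases before to 50 after the RefSeq start of the gene (build GRCm38.p6), 5′ to 3′ on the gene's strand. Capitals mark matches, on either strand, to the core of the interferon-stimulated response element (a pair of GAAA words 2 bases apart), the gamma-activated site bound by STAT factors (TTCNNNGAA), the core of the antioxidant response element (TGACNNNGC) and the AP-1 site (TGANTCA). The AP-1 and antioxidant motifs can overlap each other. The windows were Ifit3b at chr19:34607707-34608006 (plus strand), Fgl2 at chr5:21372423-21372722 (plus strand), Tnc at chr4:64046966-64047265 (minus strand) and Gsta3 at chr1:21240335-21240634 (plus strand).
Ifit3b: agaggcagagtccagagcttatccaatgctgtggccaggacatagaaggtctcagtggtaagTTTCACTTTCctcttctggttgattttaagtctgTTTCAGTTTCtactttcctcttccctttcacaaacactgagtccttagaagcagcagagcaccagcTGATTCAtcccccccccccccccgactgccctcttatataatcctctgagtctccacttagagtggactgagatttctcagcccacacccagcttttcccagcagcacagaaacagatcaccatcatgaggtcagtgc
Fgl2: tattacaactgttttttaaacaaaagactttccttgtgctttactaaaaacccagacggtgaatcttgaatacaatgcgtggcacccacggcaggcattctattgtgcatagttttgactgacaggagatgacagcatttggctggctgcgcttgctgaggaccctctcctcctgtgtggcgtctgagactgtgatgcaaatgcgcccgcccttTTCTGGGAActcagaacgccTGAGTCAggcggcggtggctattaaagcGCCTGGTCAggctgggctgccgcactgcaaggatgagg
Tnc: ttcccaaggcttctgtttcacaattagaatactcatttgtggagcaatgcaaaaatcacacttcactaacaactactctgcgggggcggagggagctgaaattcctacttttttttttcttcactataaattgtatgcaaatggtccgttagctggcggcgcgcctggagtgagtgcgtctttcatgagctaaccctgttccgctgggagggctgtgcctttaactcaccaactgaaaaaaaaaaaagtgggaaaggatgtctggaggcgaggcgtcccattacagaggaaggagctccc
Gsta3: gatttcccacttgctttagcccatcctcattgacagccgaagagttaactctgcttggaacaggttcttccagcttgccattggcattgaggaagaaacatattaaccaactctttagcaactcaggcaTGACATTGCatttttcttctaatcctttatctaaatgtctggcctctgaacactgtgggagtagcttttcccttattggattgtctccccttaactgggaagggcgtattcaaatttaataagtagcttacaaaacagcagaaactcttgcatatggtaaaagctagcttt

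The Ifit3b window held 2 interferon-response cores in reverse orientation, TTTCACTTTC at 188 and TTTCAGTTTC at 154 bases before the start, and an AP-1 match. The Fgl2 window held a gamma-activated site, an AP-1 match and an antioxidant core in reverse orientation. In Gsta3 the capitals are an antioxidant core 121 bases before the start, and the Tnc window held none of the motifs searched. The NF-kB motif (GGG and TTTCC, 2 bases apart) and the PU.1 motif (GAGGAAGT) were searched too and had no match in these 4 windows.

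Across all promoters, 15618 tested genes had such a window. The interferon-response core was present in 3.32% of all windows, in 1.34% of those of genes higher in -/- cells (21 of 1568) and in 8.77% of those of lower genes (83 of 946). Its share was 12.8% (55 of 429) among genes lower by at least 2-fold and 23.9% (26 of 109) among those lower by at least 4-fold. In the interferon-stimulated gene list described next it was 57.7% (15 of 26). The antioxidant core was about as common in windows of higher genes (13.1%) as in all windows (13.4%). Its share was 15.2% among lower genes and 18.3% (20 of 109) among those lower by at least 4-fold. In the NRF2 list 4 of the 12 windows held it (33.3%). The AP-1 site was in 6.99% of all windows. Among genes changed by at least 4-fold its share was 16.5% for lower (18 of 109) and 14.3% for higher genes (5 of 35). The NF-kB motif was in 1.52% of all windows and in 7.34% (8 of 109) of those of genes lower by at least 4-fold. These shares are descriptions of letters and were not tested.

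Interferon-stimulated genes were lower in LPS-treated -/- cells almost throughout. Of 37 measured, 35 were lower and none higher, with a median difference of -2.03, against a median of -0.04 over all genes. The count was 35 with any 1 of the 6 LPS arrays left out, and 35 after cyclic loess. The 2 others were Bst2, which tethers virions to the cell surface (-1.09 ± 0.39, adjusted p = 0.079), and Parp14 (-0.66 ± 0.25, adjusted p = 0.096). Untreated -/- cells, on other arrays, also had 35 members lower and a median of -2.34.

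Iigp1, an immunity-related GTPase that attacks pathogen vacuoles, read 10.26, 9.07 and 10.43 in +/- and 5.45, 4.71 and 5.38 in -/- LPS arrays. It was 26.7-fold lower in the -/- cells, with a gap of more than 3 log2 units between the groups. Ifit3, whose product binds viral RNA together with Ifit1, read 11.72, 11.99 and 11.71 against 8.23, 7.81 and 8.38 (-3.67 ± 0.33). Its near neighbour Ifit3b read 9.73, 10.01 and 9.71 against 4.88, 4.57 and 5.98 (-4.67 ± 0.27). The sequences of both are alike, and cross-hybridisation between them was not tested. Ifit2 differed by -3.26 ± 0.28 and Isg20, an exonuclease, by -3.03 ± 0.25. The smallest called difference of the list was that of Trim30a, a tripartite-motif protein, at -1.02 ± 0.18 (11.49, 11.58 and 11.55 against 10.73, 10.29 and 10.52). Even in this gene every -/- array lay below every +/- array.

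Rsad2 (viperin, a radical enzyme that makes a chain-terminating nucleotide) still read 12.07, 11.67 and 11.70 in the -/- LPS arrays, against 13.50, 13.44 and 13.41 in +/-. Irf7, the regulator of late interferon genes, was lower by 1.83 ± 0.21 and the sensor Ddx58 (RIG-I) by 1.90 ± 0.19.

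Interferon beta itself, Ifnb1, was near the low end of the signal range in all groups, and no difference was seen there. It read 4.22, 3.91 and 3.71 in +/- and 3.62, 4.23 and 3.71 in -/- LPS arrays (-0.10 ± 0.22, adjusted p = 0.81). The mean LPS response of its probe set over both genotypes was 0.02. This probe set registered no induction, so it cannot tell whether interferon beta differed between the genotypes. Of 18 interferon signalling genes 6 were lower and 1 higher. Stat2 read 11.15, 10.87 and 11.21 against 9.78, 9.51 and 9.16 (-1.60 ± 0.20). Irf1 (-1.33 ± 0.21), the inhibitor Socs1 (-1.0 ± 0.19) and the kinases Jak2 (-0.95 ± 0.18), Tyk2 (-0.77 ± 0.18) and Jak1 (-0.45 ± 0.14) were also lower. Irf3, the factor upstream of interferon beta, was higher by 0.84 ± 0.14 (6.68, 6.56 and 6.37 against 7.31, 7.34 and 7.47). The receptor chains Ifnar1 (-0.43) and Ifnar2 (0.27) did not pass the test. The call of Jak1 was lost without any 1 LPS array but +/- LPS array 2.

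The genes with the largest differences were not confined to the interferon-stimulated list above. Whether the others respond to interferon was not tested. Ms4a4c, a four-span membrane protein of macrophages, read 11.15, 11 and 11.20 in +/- and 5.53, 4.67 and 5.95 in -/- LPS arrays. This was the largest difference of all genes, 53.3-fold (-5.74 ± 0.28, adjusted p = 8.56e-08). Its relative Ms4a6b followed with 11.08, 11.05 and 10.86 against 7.07, 6.63 and 6.92 (-4.13 ± 0.28). Tnfsf10 (TRAIL, a death ligand) read 10.63, 10.14 and 10.51 against 5.79, 4.74 and 5.76 (-4.99 ± 0.25).

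Fcrls, an Fc receptor-like scavenger protein, read 10.66, 10.03 and 11.14 against 5.29, 7.10 and 5.65 (-4.60 ± 0.43). The -/- array 2 was the highest of its group, yet far below every +/- array. Fgl2, a membrane prothrombinase whose promoter is shown above, read 9.75, 7.25 and 9.22 against 4.00, 4.31 and 4.28 (-4.55 ± 0.48). The -/- arrays were tight, and the wide spread lay in the +/- group. These -/- signals were near the low end of the range, as the lower quartiles of the -/- LPS arrays were 3.74 to 3.89. Tnc (tenascin C, an extracellular matrix glycoprotein) read 8.73, 8.25 and 8.53 against 4.26, 4.34 and 3.98. This was 19.9-fold lower with a small error (-4.31 ± 0.16, limma adjusted p = 1.04e-08). The -/- signals of Tnc were near that low end too, so the folds of Fgl2 and Tnc are rough figures.

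The 15 lower genes with the largest differences also held Il33 (-3.96 ± 0.57), Ccnd2 (-3.91 ± 0.25), Tmem176b (-3.86 ± 0.77), the nucleoside carrier Slc28a2 (-3.85 ± 0.29), the PYHIN family gene Ifi214 (-3.84 ± 0.35), the endothelial lipase gene Lipg (-3.75 ± 0.28) and Cd69 (-3.73 ± 0.33). All 15 passed the test under every other setting and subset of arrays in which they were run, 21 in most and 20 where dim genes were left out and the gene was dim. The -/- signals of Ifi214 and Lipg were near the low end of the range, so their folds are rough figures too.

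Among inflammatory mediators the differences ran mostly, but not always, downward. Il6 read 10.06, 8.63 and 8.81 in +/- and 6.19, 6.06 and 6.53 in -/- LPS arrays (7.5-fold lower, -2.91 ± 0.29). The +/- array 1 was the highest, and the groups were more than 2 log2 units apart. Nos2, inducible nitric oxide synthase, read 10.99, 11.39 and 11.83 against 9.18, 9.80 and 7.79 (-2.49 ± 0.38). Ptgs2 (cyclooxygenase 2) read 12.38, 12.25 and 12.79 against 9.65, 11.38 and 9.58 (-2.27 ± 0.40). In both genes -/- cells still gave a signal far above that of untreated cells, which lay between 4.50 and 5.55. Ptgs2 did not stand for its group. Of 17 prostaglandin and leukotriene genes 5 were higher and 3 lower (median -0.06), and 3 and 3 after cyclic loess. With any 1 LPS array left out, 1 to 4 were higher and 2 to 3 lower.

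Tnf did not follow. It read 11.94, 11.51 and 11.37 in +/- and 12.58, 12.59 and 12.59 in -/- LPS arrays. All -/- arrays were above all +/- arrays, but the difference of 0.98 ± 0.36 did not pass the test (adjusted p = 0.089). Il12b, a subunit of interleukins 12 and 23, read 10.93, 6.38 and 6.42 against 9.16, 9.53 and 9.32. The +/- array 1 was more than 4 log2 units above the other two, and the difference of 1.43 ± 0.85 did not pass (adjusted p = 0.29). Il10 read 8.49, 9.99 and 9.48 against 8.69, 8.87 and 7.81 (-0.87 ± 0.36, adjusted p = 0.13).

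Of 18 interleukins, growth factors and antagonists, 8 were lower and none higher, with a median of -0.62. Il15 (9.78, 9.91 and 10.19 against 7.70, 8.30 and 7.29) and its receptor chain Il15ra (9.53, 9.74 and 9.96 against 6.79, 6.50 and 6.50) fell together, by 2.20 ± 0.23 and 3.14 ± 0.17. Il15 is presented on this chain to lymphocytes. Il18 fell by 2.01 ± 0.20, the Il1 antagonist Il1rn by 1.57 ± 0.26 and Il27 by 1.23 ± 0.22. Il1a (0.56), Il1b (-0.34), Il23a (0.24) and Csf3 (0.22) did not pass the test.

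Among 14 members of the TNF superfamily and its receptors 6 were lower and none higher. Beside Tnfsf10 these were Tnfsf8 (CD30 ligand, -3.19 ± 0.25), the costimulator Cd40 (-1.27 ± 0.21), Tnfrsf9 (-1.21 ± 0.29), the death receptor Fas (-1.13 ± 0.36) and Tnfrsf1a (-0.56 ± 0.14). The count was 4 to 5 with any 1 LPS array left out. Fas lost its call without each of the 6 arrays in turn, and Tnfrsf9 without +/- LPS array 2 or 3 or -/- LPS array 1 or 3. Of 9 costimulatory and checkpoint genes, Cd69, Cd86 (-1.46 ± 0.23) and Cd274 (PD-L1, -0.92 ± 0.18) were lower.

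Chemokines split. Of 9 CXC chemokines 3 were lower and 1 higher. Cxcl11 and Cxcl9, ligands of Cxcr3, read 8.65, 8.76 and 9.47 against 5.51, 5.64 and 5.29 (-3.48 ± 0.25), and 7.82, 5.84 and 6.84 against 4.50, 4.79 and 4.63 (-2.19 ± 0.34). The RefSeq table lists Cxcl11 as a transcribed pseudogene. The third such ligand, Cxcl10, read 13.73, 13.64 and 13.77 against 12.58, 12.79 and 12.56. Its difference was small (-1.07 ± 0.32, adjusted p = 0.040) and was lost without any 1 of the 6 LPS arrays, although the groups did not overlap. The neutrophil attractant Cxcl3 was higher by 1.63 ± 0.43, and Cxcl1 (0.96) and Cxcl2 (0.25) did not pass.

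Of 12 CC chemokines, Ccl12 (-2.96 ± 0.68), Ccl8 (-1.81 ± 0.38) and Ccl22 (-0.65 ± 0.18) were lower. Ccl6 was higher, at 12.66, 11.76 and 12.67 against 9.29, 10.06 and 9.24 (2.84 ± 0.30), while Ccl2 (-0.06), Ccl3 (-0.08) and Ccl5 (-0.14) differed little. Among 7 chemokine receptors 4 were lower and 1 higher. Ccr2, the monocyte receptor for Ccl2, read 7.36, 6.88 and 7.87 against 4.54, 4.22 and 4.23 (-3.05 ± 0.41). Cxcr4 was higher by 1.83 ± 0.43, with values of 7.30, 8.29 and 8.05 against 5.67, 5.86 and 6.62. The call of Cxcl3 was lost without +/- LPS array 3, -/- LPS array 2 or -/- LPS array 3, that of Ccl22 without +/- LPS array 1 or 2 or -/- LPS array 2 or 3 and after cyclic loess, and that of Cxcr4 without -/- LPS array 3. Only 2 receptors were called lower without +/- LPS array 1, -/- LPS array 1 or -/- LPS array 3.

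Antigen presentation genes were lower. Of 11 class I processing genes 8 were lower and none higher (median -0.94). Tap1, a subunit of the peptide transporter, read 10.75, 10.57 and 10.86 against 9.26, 8.76 and 8.78 (-1.79 ± 0.15). The immunoproteasome subunits Psmb10 (-1.51 ± 0.19), Psmb9 (-1.46 ± 0.12) and Psmb8 (-1.13 ± 0.14) were lower too. B2m (-0.27) did not pass.

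In contrast with these, 9 of 31 constitutive proteasome subunits were higher and none lower, among them the catalytic subunit Psmb6 (10.29, 9.86 and 10.13 against 11.04, 11.05 and 11.04, a difference of 0.95 ± 0.14). The count of such subunits fell to 3 after cyclic loess, where their median was 0.20 instead of 0.38. It was 10 without +/- LPS array 1, 3 without +/- LPS array 2 or 3, 5 without -/- LPS array 1 or 2, and 2 without -/- LPS array 3. Psmb6 kept its call under each of these.

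Of 7 class II genes 4 were lower. H2-Aa, a class II alpha chain, read 5.93, 8.25 and 7.86 in +/- and 4.26, 3.79 and 4.92 in -/- LPS arrays (-3.02 ± 0.62). The +/- array 1 was about 2 log2 units below the other 2 of its group, still above every -/- array. The invariant chain Cd74 (-2.29 ± 0.53), H2-Ab1 (-1.64 ± 0.42) and H2-Eb1 (-1.21 ± 0.28) had the same order of arrays in +/- cells. Only 1 of the 7 genes passed without +/- LPS array 3, and H2-Ab1 also lost its call without +/- LPS array 2 or -/- LPS array 2. The class II regulator Ciita (-0.23) did not pass.

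Of 15 genes of LPS sensing and its adaptors 5 were lower and 2 higher, and 2 to 4 were lower and 1 higher without single LPS arrays. Tlr4, the LPS receptor, read 7.92, 7.56 and 7.66 against 7.04, 7.10 and 7.39. The difference of -0.54 ± 0.17 was just past the threshold (adjusted p = 0.043) and was lost under 10 of the 21 other settings and subsets of arrays, 4 of them with an LPS array left out (+/- 1, +/- 3, -/- 1 or -/- 2). Its adaptor Myd88 was lower by 0.91 ± 0.15 (11.49, 11.33 and 11.42 against 10.56, 10.43 and 10.52) and the kinase Tbk1 by 0.66 ± 0.11. Cd14 (0.18), Ticam1 (0.02) and Traf6 (0.07) did not pass. Lbp, the LPS-binding protein, was higher at 8.54, 7.70 and 8.11 against 5.09, 5.63 and 5.30 (2.78 ± 0.28).

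Among 10 other Toll-like receptor genes 4 were lower and 1 higher. Tlr3, the receptor for double-stranded RNA, read 9.07, 8.66 and 8.72 against 6.33, 6.08 and 6.20 (-2.61 ± 0.14). Tlr13, which senses bacterial ribosomal RNA, was higher by 1.62 ± 0.24. Within the NF-kB list of 14 genes, Rel (-1.04 ± 0.25), Tnip3 (-0.97 ± 0.26) and Nfkbiz (-0.95 ± 0.28) were lower and Ikbkg (0.78 ± 0.14) was higher. Rela (0.01), Relb (-0.01) and the inhibitor Nfkbia (-0.15) did not pass. Rel, Tnip3 and Nfkbiz each lost the call without +/- LPS array 3 or without -/- LPS array 3. Tnip3 also lost it without +/- LPS array 2 or -/- LPS array 1, and Nfkbiz without +/- LPS array 1 or -/- LPS array 1.

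Of 17 AP-1, Atf and Egr factors 2 were lower and 2 higher, beside 5.99% and 9.69% of all genes. Batf2 (9.48, 9.21 and 9.10 against 7.53, 7.28 and 7.33, -1.88 ± 0.17) and Mafk (-1.59 ± 0.19) were lower, and Egr2 (1.81 ± 0.33) and Fosl1 (0.59 ± 0.19) higher. Fos, Jun and Atf3 did not pass. Of 10 inflammasome and caspase genes 4 were lower. The DNA sensor Aim2 read 9.81, 9.59 and 9.42 against 8.17, 8.14 and 8.26 (-1.42 ± 0.16), and Casp1 was lower by 1.07 ± 0.20. Nlrp3 (0.06) did not pass, and neither did Casp4 (-1.45 ± 0.58, adjusted p = 0.11), where -/- array 2 stood at 8.61 against 6.82 and 6.52 in the others. Fosl1 lost its call under 12 of the 21 other settings and subsets, without +/- LPS array 1 or 3 and -/- LPS array 1 or 3 among them.

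Of 15 feedback inhibitors of signalling 2 were lower and 1 higher, beside 5.99% and 9.69% of all genes. Dusp2, a nuclear phosphatase of MAP kinases, read 8.14, 8.39 and 9.39 in +/- and 6.34, 6.39 and 5.85 in -/- LPS arrays (-2.45 ± 0.27). Dusp16 was lower by 1.07 ± 0.27 and Dusp4 higher by 1.39 ± 0.42, but Dusp16 lost its call without +/- LPS array 1 or 3 or -/- LPS array 1 or 3, and Dusp4 without any 1 LPS array but +/- LPS array 1 and after cyclic loess. Socs3 (0.11), Dusp1 (-0.25) and Zfp36 (-0.36) did not pass the test. Mxd1, a MYC antagonist, and the D-type cyclin Ccnd2 stood out in a list of 14 cell cycle regulators, of which 5 were lower and none higher. Mxd1 read 10.45, 11.25 and 11.25 against 8.42, 7.83 and 7.72 (-3.0 ± 0.25), and Ccnd2 read 10.09, 9.81 and 10.28 against 6.24, 6.05 and 6.16. Of 33 cell cycle and replication genes only Mcm10 was called, lower by 1.38 ± 0.38, and the call was lost without any 1 of 5 LPS arrays (all but +/- LPS array 2).

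**Figure D2:**
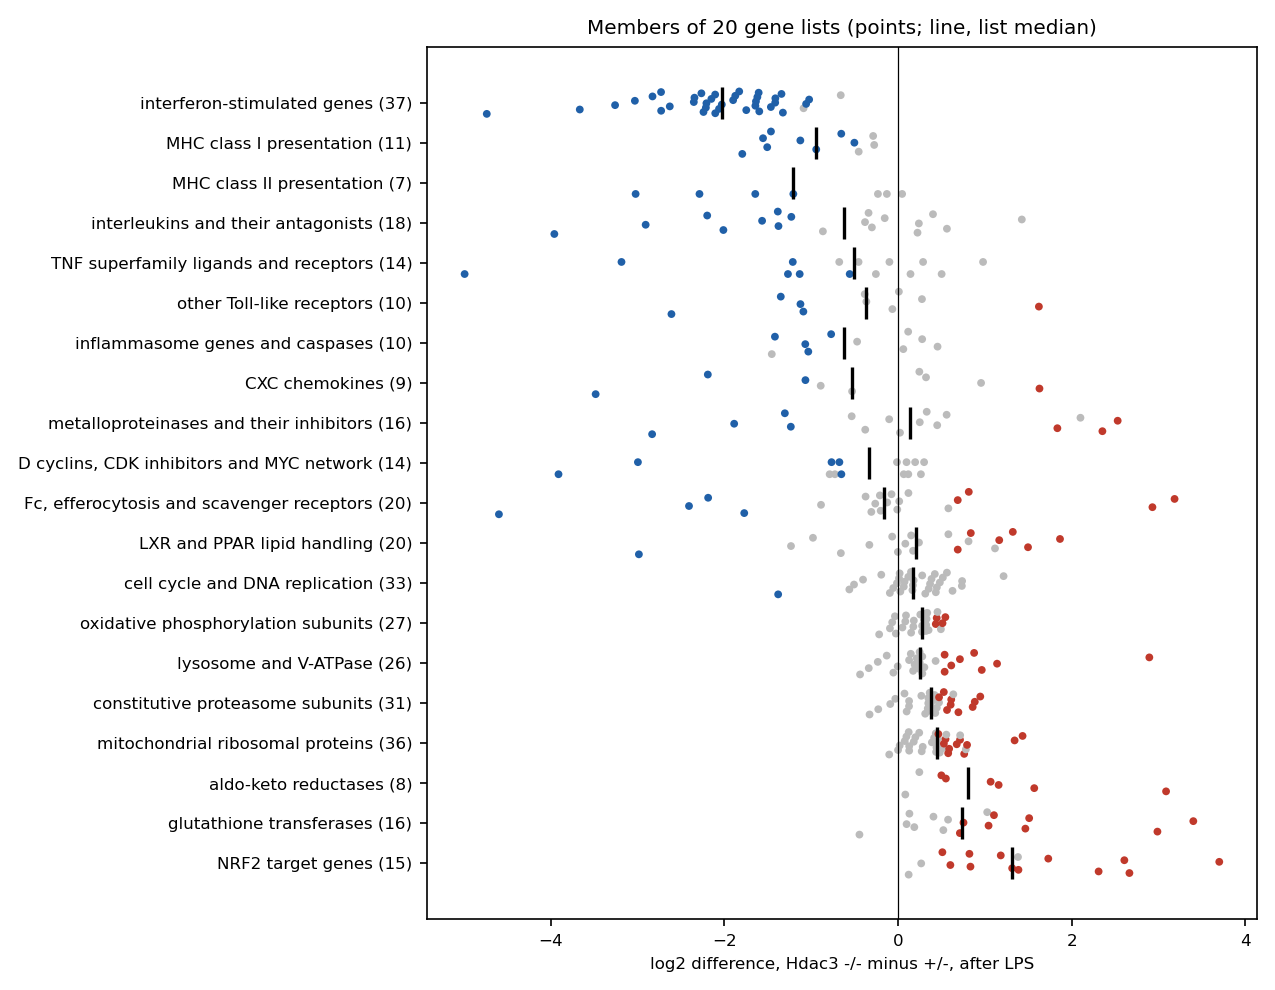
Log2 genotype differences after LPS (horizontal axis) of the measured members of 20 gene lists, with the number measured in brackets. Each point is a gene, blue or red when it passed the test, and the black line is the list median, which ran from -2.03 for interferon-stimulated genes to 1.32 for NRF2 target genes.

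Genes of glutathione synthesis and detoxification were higher. Of 15 NRF2 target genes 12 were higher and none lower (median 1.32), 10 to 12 with any 1 LPS array left out and 10 after cyclic loess. Gclc, the catalytic subunit of the rate-limiting enzyme of glutathione synthesis, read 7.21, 6.50 and 6.44 in +/- and 10.38, 10.42 and 10.45 in -/- LPS arrays. It was 13-fold higher, with -/- arrays that hardly differed among themselves (3.70 ± 0.31). Its regulatory subunit Gclm was higher by 2.31 ± 0.21 and the quinone reductase Nqo1 by 2.67 ± 0.40 (5.50, 5.28 and 4.93 against 8.06, 6.97 and 8.68).

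Srxn1, which repairs oxidised peroxiredoxins, read 8.24, 8.08 and 8.28 against 10.69, 10.74 and 10.99 (2.61 ± 0.28). Hmox1, which breaks down haem, was higher by 1.73 ± 0.22. The 3 members that did not pass were the cystine carrier Slc7a11 (1.38 ± 0.52), Fth1 (0.12) and Me1 (0.27). Untreated -/- cells had 10 of the same 15 genes higher, with a median of 1.23, on other arrays.

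Glutathione transferases and aldo-keto reductases went the same way. Of 16 transferases 8 were higher and none lower (median 0.73). The count was 6 after cyclic loess, 10 without -/- LPS array 2, 5 without +/- LPS array 1 or 3, and 4 without -/- LPS array 3. Gsta3, whose promoter is shown above, read 5.48, 6.13 and 5.2 against 8.92, 8.63 and 9.46 (10.6-fold higher, 3.40 ± 0.29). Gstp1 read 6.62, 6.54 and 6.41 against 9.85, 8.60 and 10.09 (2.99 ± 0.42), with -/- array 2 the lowest of its group. Of 8 aldo-keto reductases 6 were higher, led by Akr1c18 (3.80, 3.71 and 3.52 against 6.29, 6.31 and 7.69, 3.09 ± 0.35), and the count was 4 after cyclic loess and 3 without +/- LPS array 3 or -/- LPS array 3. These enzymes belong to families of close copies, and cross-hybridisation was not tested.

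The other genes with the largest increases had varied roles. Mfge8, a bridge between dying cells and phagocytes, read 7.70, 8.07 and 8.25 against 11.29, 11.10 and 11.18 (9.1-fold, 3.19 ± 0.19). Rhob, a small GTPase, read 7.48, 7.99 and 7.33 against 10.88, 10.92 and 10.72 (3.24 ± 0.21). Layn, a hyaluronan receptor, read 5.94, 6.70 and 6.32 against 9.46, 9.61 and 9.86 (3.32 ± 0.29). In all 3 genes the groups lay more than 2 log2 units apart.

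Bhlhe41, a transcriptional repressor, read 6.12, 7.42 and 6.42 in +/- and 10.10, 9.76 and 10.27 in -/- LPS arrays (3.39 ± 0.31). Stfa3, a stefin (cysteine protease inhibitor), had the largest increase (3.82 ± 0.76) and a wide spread, with 2.89, 4.32 and 3.57 against 7.80, 5.18 and 9.25. Ctsk (cathepsin K) read 5.96, 7.22 and 6.50 against 9.80, 8.11 and 10.45 (2.89 ± 0.60). The scavenger receptor Marco, at 9.54, 8.70 and 8.04 against 12.33, 10.68 and 12.06, was higher by 2.93 ± 0.62. In these last 3 genes and in Gstp1, -/- array 2 was the lowest of the -/- group. Slpi (2.83 ± 0.53) and the desmosomal gene Pkp2 (2.71 ± 0.22) completed the 15 genes with the largest increases, and all 15 kept the call under the same settings and subsets. The +/- signals of Stfa3 and Akr1c18 were near the low end of the range, so their folds are rough figures.

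Receptors for uptake moved both ways. Of 20 Fc, efferocytosis and scavenger receptor genes 4 were higher and 4 lower. After cyclic loess 2 were higher and 5 lower, and 2 were higher without +/- LPS array 2 or 3 or -/- LPS array 1 or 3. The calls lost after cyclic loess were those of Cd36 (0.69 ± 0.21) and Scarb1 (0.81 ± 0.24). Fcgr1, the high-affinity IgG receptor, read 11.64, 12.01 and 11.80 against 9.80, 8.95 and 9.48 (-2.41 ± 0.19). The receptor kinase Axl (-2.19 ± 0.22) and Fcgr4 (-1.77 ± 0.39) were lower too, while Mertk (-0.31), Fcgr3 (-0.37) and Msr1 (0.12) did not pass.

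Among 20 lipid handling genes 6 were higher and 1 lower, and the count of higher genes was 4 to 7 with any 1 LPS array left out. The lower gene was Ch25h, which makes 25-hydroxycholesterol, at 12.85, 12.58 and 12.59 against 9.20, 10.72 and 9.13 (-2.99 ± 0.69), a call lost without -/- LPS array 3. The fatty acid carrier Fabp5 (1.87 ± 0.45), the lipid droplet coat gene Plin2 (1.5 ± 0.20), the nuclear receptor Ppard (1.32 ± 0.18) and Apoe (1.17 ± 0.26) were higher. Pparg (-0.07), Nr1h3 (0.00) and Abca1 (-0.66) did not pass. Metalloproteinases split, with 3 of 16 genes higher and 4 lower. Mmp12, macrophage elastase, read 8.94, 9.55 and 9.63 against 11.77, 11.24 and 12.17 (2.35 ± 0.30), and its inhibitor Timp1 read 9.74, 11.72 and 10.20 against 8.63, 7.03 and 7.50 (-2.83 ± 0.49). The call of Fabp5 was lost without +/- LPS array 3, -/- LPS array 1 or -/- LPS array 3.

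Of 17 transcription factors of the lineage 4 were higher and 3 lower, and 3 and 4 after cyclic loess. Maf read 10.16, 9.82 and 10.17 against 8.81, 7.71 and 8.51 (-1.70 ± 0.24), and Klf6 was lower by 0.98 ± 0.13. Cebpa read 6.32, 6.45 and 5.89 against 8.65, 8.58 and 8.43 (2.33 ± 0.19) and Cebpb was higher by 0.82 ± 0.20, a call lost without -/- LPS array 3 and after cyclic loess. Spi1 (PU.1), the master factor of macrophages, did not pass (0.21), nor did Irf8 (0.14). The core clock repressor Nr1d1 (REV-ERB alpha), which recruits NCoR and Hdac3, was higher by 1.59 ± 0.15 (6.78, 6.64 and 6.75 against 8.61, 8.06 and 8.28). Among 10 other histone deacetylases Hdac1 alone was called, lower at 10.53, 10.82 and 10.51 against 9.76, 9.45 and 9.92 (-0.91 ± 0.15). In the corepressor complex Gps2 was higher by 0.65 ± 0.15, Tbl1x by 0.71 ± 0.21 and Tbl1xr1 by 0.53 ± 0.13, but after cyclic loess only Gps2 of these 3 was still called, and Tbl1x and Tbl1xr1 lost their calls without -/- LPS array 3. Tbl1x also lost its call without any 1 of 4 other LPS arrays (all but +/- LPS array 1). Ncor1 was not analysed here.

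Housekeeping groups showed small differences whose counts moved with the scaling. Of 36 mitochondrial ribosomal protein genes 11 were higher and none lower (median 0.44), 4 after cyclic loess (median 0.28). Without single LPS arrays the count was 13, 6 and 3 (+/- 1, 2 and 3) and 4, 11 and 2 (-/- 1, 2 and 3). Mrps18b had the largest difference (9.13, 8.36 and 8.29 against 10.04, 9.69 and 10.37, 1.43 ± 0.23). Counted by symbol, 29 of 77 such genes were higher and none lower. After cyclic loess 18 of these 77 were higher, against 1266 of all 19945 genes. Of 27 oxidative phosphorylation subunits 4 were higher, beside 9.69% of all genes, and 1 after cyclic loess. Without single LPS arrays 0 to 5 were higher (0 without -/- LPS array 3, 1 without +/- LPS array 3 or -/- LPS array 1). Of 20 glycolysis and hypoxia genes 2 were higher and 1 lower, near the shares of 9.69% and 5.99% over all genes. After cyclic loess 1 was higher and 3 lower. Without single LPS arrays 1 to 3 were higher and 0 to 1 lower. Only 1 was higher without +/- LPS array 3 or -/- LPS array 1. None was lower without +/- LPS array 1 or -/- LPS array 2. Of 26 lysosomal genes 8 were higher and none lower (median 0.25), against 5 higher and 1 lower after cyclic loess and 4 higher without -/- LPS array 3. Beside Ctsk these included Tfeb, the regulator of lysosome genes (1.14 ± 0.17), and Ctsd (0.61 ± 0.11).

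Few markers of other cell types passed the test. No gene of the neutrophil, B cell, T cell and mast cell lists (13, 8, 8 and 8 genes measured) passed the test. The mean signal of these lists per LPS array was 4.93 to 5.56 in +/- and 4.98 to 5.21 in -/- for neutrophils, 4.72 to 4.76 and 4.36 to 4.56 for B cells, 4.41 to 4.82 and 4.25 to 4.63 for T cells, and 3.56 to 3.79 and 3.43 to 3.58 for mast cells. In other lists every -/- array lay below every +/- array in this mean, at 4.94 to 5.07 in +/- against 4.62 to 4.84 in -/- for dendritic cells, 4.81 to 5.22 against 4.38 to 4.65 for eosinophils, 3.44 to 3.58 against 3.30 to 3.35 for natural killer cells, and 6.20 to 6.70 against 5.68 to 5.82 for megakaryocytes, as also in the B cell list. One gene each was lower in the natural killer (Klrk1, -0.74 ± 0.18), dendritic (Xcr1, -0.70 ± 0.17), eosinophil (Ccr3, -2.17 ± 0.44), megakaryocyte (Ppbp, -2.17 ± 0.42) and stromal (Dcn, -0.71 ± 0.16) lists. Among 8 osteoclast genes Ctsk was higher and Tnfrsf11a (RANK) lower by 1.36 ± 0.34, and Tfrc was the only one of 5 erythroid genes called (0.92 ± 0.26). Klrk1 lost its call without -/- LPS array 1 or 3, Xcr1 and Tnfrsf11a without +/- LPS array 3 or -/- LPS array 3, and Tfrc without +/- LPS array 2 or 3 or -/- LPS array 1 or 3 and after cyclic loess. The part of such cells in the results was not tested. In cell populations measured in bulk, fewer cells of a type and less RNA per cell cannot be told apart.

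The genotype difference was then set beside each gene's own response to LPS, averaged over both genotypes. These averages use the same arrays, so the counts are a description. Of 565 genes induced at least 2-fold, 260 (46.0%) were lower and 35 (6.19%) higher in -/- LPS arrays, with a median difference of -0.66. Of 646 genes repressed at least 2-fold, 189 (29.3%) were higher and 32 (4.95%) lower, with a median of 0.42. Of the 18734 other genes 9.12% were higher and 4.82% lower. The 260 held 225 genes lower by at least 2-fold, and 94 of the 260 were also lower in untreated -/- cells. After cyclic loess the counts were 277 lower and 27 higher among induced genes, and 40 lower and 133 higher among repressed genes. With any 1 LPS array left out, 227 to 265 induced genes were lower. The repressed genes that were higher numbered 103 to 208, with 103 without -/- LPS array 3 and 112 without +/- LPS array 3.

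**Figure D3:**
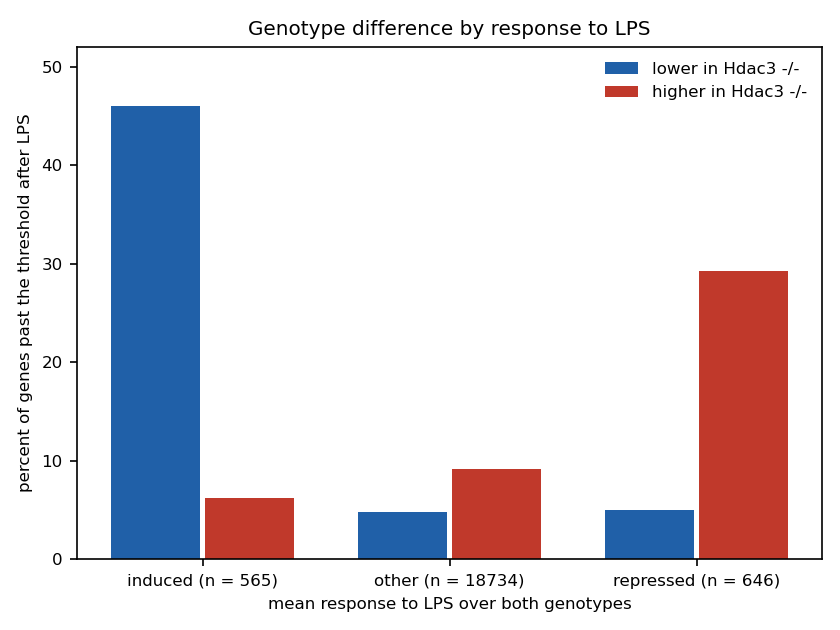
Percent of genes lower (blue) or higher (red) in Hdac3 -/- after LPS (vertical axis) among genes induced or repressed at least 2-fold by LPS on average over both genotypes, and all other genes (horizontal axis, with the number of genes). Lower genes make up 46.0% of the induced class, and higher genes 29.3% of the repressed class.

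Without LPS, 531 genes (2.66%) differed between the genotypes, 243 higher and 288 lower in -/- cells, and 266 without -/- untreated array 1. The untreated and the LPS comparisons share no arrays, but they were not shown to be independent. Deviations from the group means correlated between same-numbered untreated and LPS arrays at 0.243, 0.327 and 0.223 in +/- and at 0.09, 0.195 and -0.122 in -/- cells. The labels do not say whether they came from the same animals. Of the 531 genes, 77.2% were also called the same way after LPS (191 higher and 219 lower), which is 13.1% of the 3127 genes called after LPS. Only 3 genes were higher without and lower with LPS, and none the reverse. Across genes the differences correlated at r = 0.612 (Spearman 0.451), as a description, since genes are not independent replicates.

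A test of the difference between both genotype effects (the interaction of genotype and LPS) was passed by 216 genes (1.08%), 155 with a more negative and 61 with a more positive difference in the LPS arrays. The count was 97 without -/- untreated array 1, 113 without -/- LPS array 3, 121 without -/- LPS array 1, 126 without +/- LPS array 3 and 349 without +/- LPS array 1. The split moved too, to 61 more negative and 9 more positive with a replicate block across genotypes (70 genes) and 322 and 270 with array weights (592 genes). With the same-numbered untreated and LPS arrays of a genotype as a block, an alternative added after the data were seen, it was 205 and 107 (312 genes, fixed block) or 220 and 127 (347 genes, random block). Of the 155, 154 were lower after LPS, and of the 61, 52 were higher. Of the genes called after LPS but not in untreated cells, 136 had a more negative and 51 a more positive difference with LPS by this test. For the rest of those genes a change of the genotype effect with LPS was not shown.

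Tnc had the most negative interaction among the named genes. In untreated cells it read 4.13, 3.63 and 3.78 in +/- and 3.85, 3.96 and 3.88 in -/- arrays, which overlapped. After LPS the groups stood more than 3 log2 units apart, and the interaction was -4.36 ± 0.23 (adjusted p = 8.63e-07). Edn1, the precursor of endothelin 1, read 10.65, 10.40 and 9.96 in +/- and 7.17, 6.61 and 6.42 in -/- LPS arrays, against 3.50 to 4.66 in all untreated arrays (interaction -3.70 ± 0.39). Il33, Lipg and Cxcl11 followed with interactions of -3.69 ± 0.80, -3.59 ± 0.39 and -3.44 ± 0.36. Il6 was at 2.55 to 3.06 in all untreated arrays (interaction -2.97 ± 0.41, adjusted p = 0.0030). Il33 was also uneven, with 7.85, 10.46 and 7.71 against 5.53, 3.95 and 4.66 after LPS. Without LPS, Tnc, Edn1, Il33, Lipg and Il6 were near the low end of the range. The lower quartiles of the untreated arrays were 3.70 to 3.84. A genotype difference could hardly show at such signals. For these genes the test cannot tell a changed genotype effect from one that was not measurable without LPS.

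Some interferon genes showed the opposite, a smaller difference with LPS than without. Rtp4, a chaperone for surface receptors, read 10.04, 10.29 and 9.99 in +/- and 4.49, 3.88 and 5.16 in -/- untreated arrays. After LPS it read 11.17, 11.22 and 11.22 against 9.46, 8.75 and 9.09. The difference thus went from -5.60 to -2.11 (interaction 3.49 ± 0.36). Cxcl10 went from -3.85 to -1.07 (2.78 ± 0.46) and Oasl2 from -3.80 to -1.75 (2.05 ± 0.43). In the interferon-stimulated list 4 genes had a more positive and 2 a more negative difference with LPS. The 4 were Rtp4, Oasl2, Samd9l and Xaf1, and the 2 were Iigp1 and Isg20.

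Outside the interferon genes, the largest positive interactions past both tests were those of Ints6l and Aph1b. Ints6l read 6.09, 5.08 and 5.25 in +/- and 7.56, 7.64 and 7.72 in -/- LPS arrays, against 8.74 to 9.59 in all untreated arrays (interaction 1.99 ± 0.36). Aph1b, a subunit of gamma-secretase, read 6.51, 6.78 and 6.88 against 9.09, 9.57 and 8.76 after LPS (1.86 ± 0.32). Rhob was the only one of the 15 genes with the largest increases to pass this test (1.55 ± 0.29, adjusted p = 0.023). Mfge8, Gsta3 and Ccl6 differed about equally without LPS (2.97, 3.03 and 2.50) and with it.

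**Figure D4:**
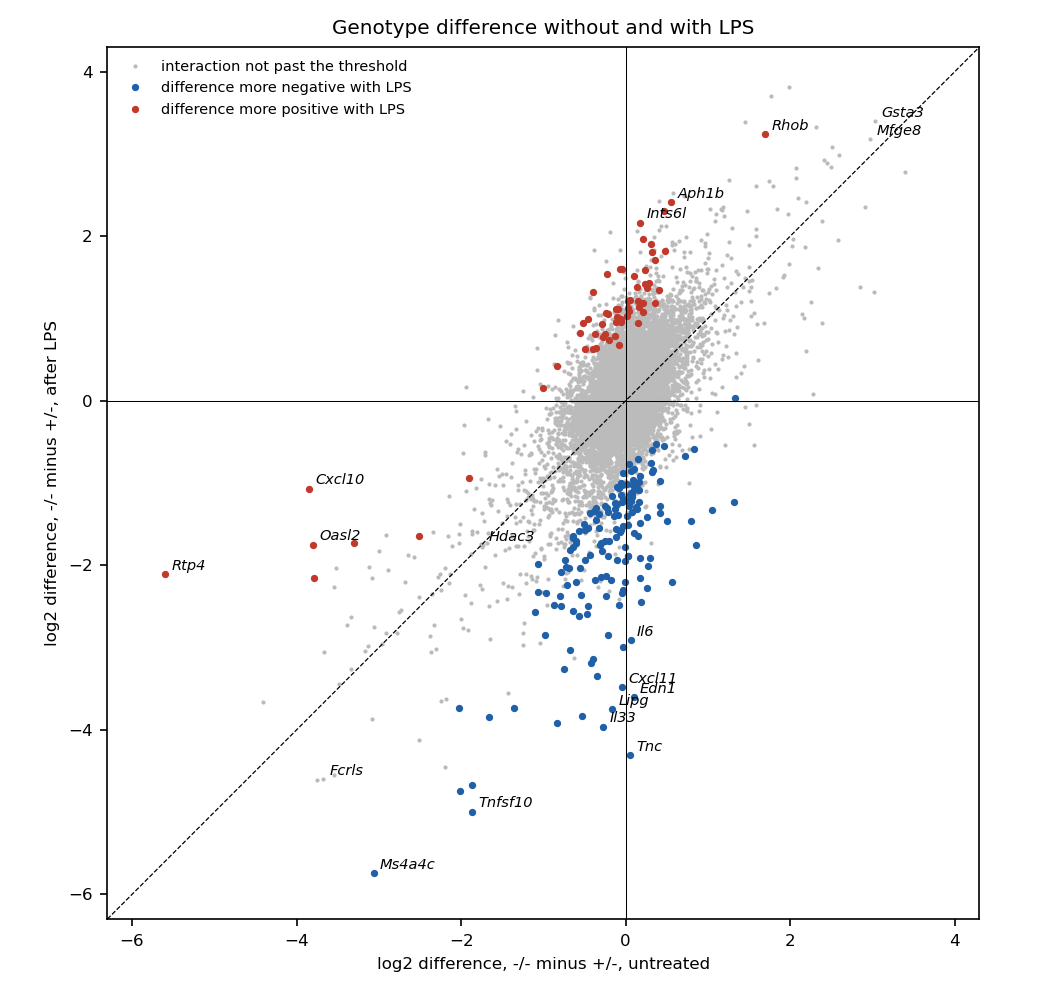
Genotype difference in untreated cells (horizontal axis, log2, -/- minus +/-) against that after LPS (vertical axis), 1 point per gene. The dashed line marks equal differences, and blue and red genes passed the interaction test. Tnc lies at 0.05 without and -4.31 with LPS, and Rtp4 at -5.60 and -2.11.

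**Figure D5:**
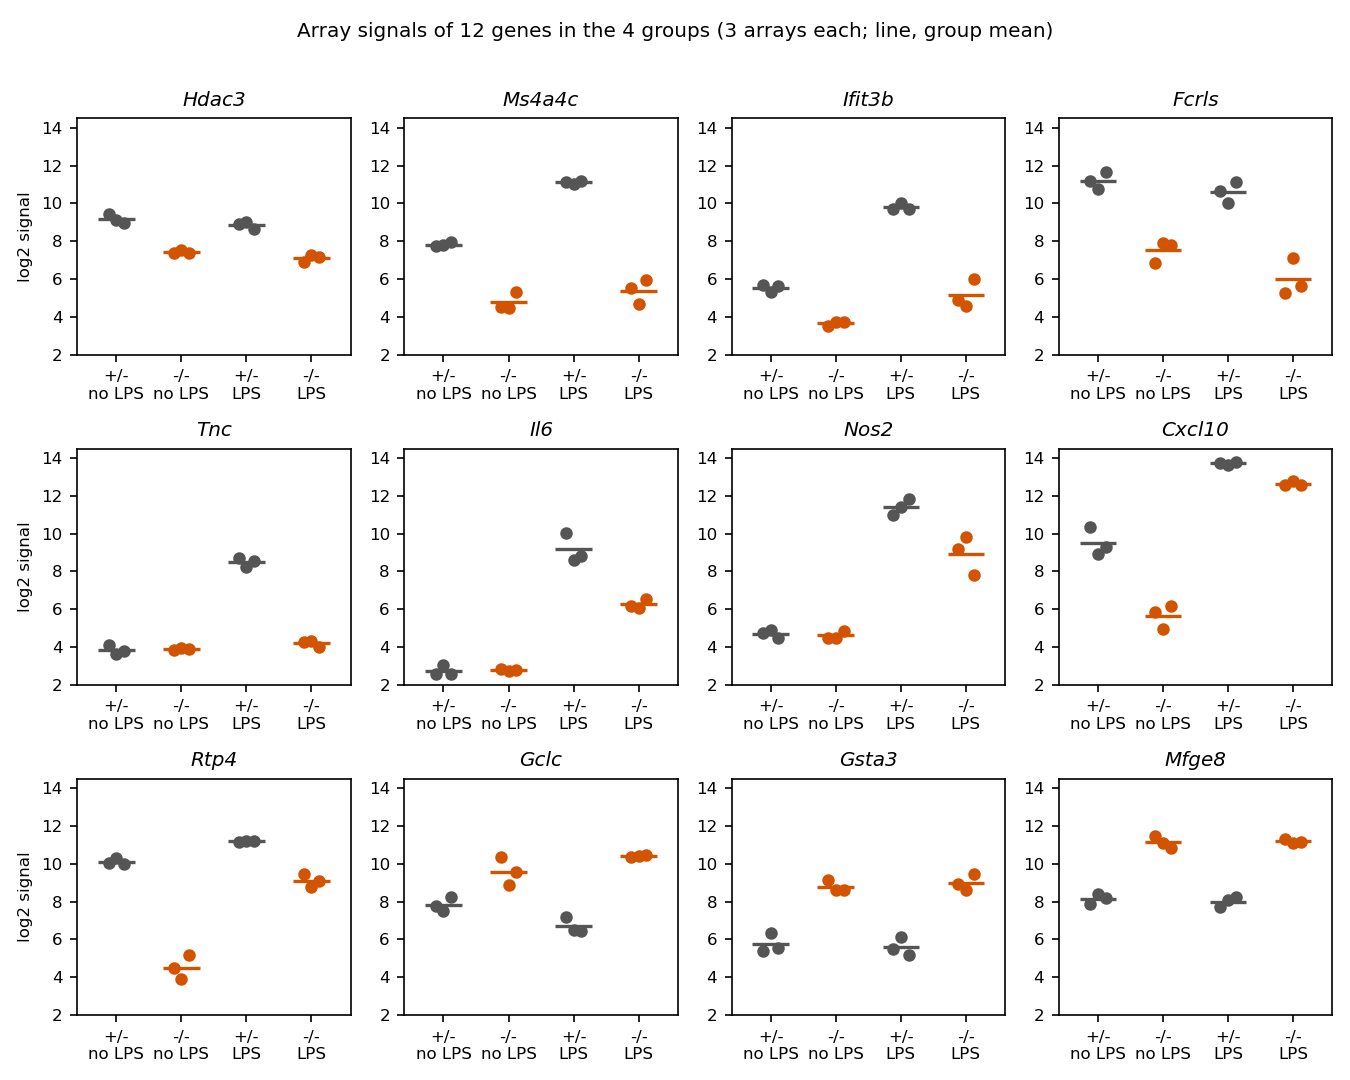
Log2 signals (vertical axes) of 12 genes in untreated and LPS-treated Hdac3 +/- (grey) and -/- (orange) macrophages, 1 point per array and a line at each group mean of 3. Tnc and Il6 are low in all untreated arrays, Cxcl10 and Rtp4 differ most without LPS, and Gsta3 and Mfge8 differ by a similar amount with and without it.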

How the data were processed

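Total RNA of 12 macrophage cultures was measured on Affymetrix arrays. The deposited log2 signals were made by the authors by RMA with affy, as the submitters' processing notes list these tools; the sources used here give no version, setting or genome build. Of 28193 probe sets, 21648 had 1 gene symbol in the platform annotation, 1313 several and 5232 none. Only the first kind was tested. The brightest probe set stood for each of the 954 genes with several, which gave 19945 genes. Array medians ranged from 5.19 to 5.37. Precision is limited by the number of arrays.

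A mean for each of 4 groups was fitted to all 12 arrays with limma 3.58.1 (eBayes) in R 4.3.3, with contrasts for the genotype difference after LPS, without LPS, and their difference. Benjamini-Hochberg adjustment ran over all genes, and the threshold was 0.05. The fit was tested on simulated data. Alternatives were another scaling, fewer arrays, other variance models, array weights, a replicate block, a limit on dim genes and the mean of probe sets. Tables and figures used Python 3.11.15, pandas 2.3.3 and matplotlib 3.10.9.

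Members and gene lists were chosen with earlier results of these data known. Named genes were Hdac3, the 15 largest called differences in each direction without overlap (predicted genes and clone names skipped), up to 4 members of each list, the 5 largest interactions in each direction past both tests, and 11 genes fixed by name, of which 2, Ncor1 among them, are not reported here. Further genes were named to complete a list or a contrast once their values had been seen.

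Replicate numbers did not pair the genotypes. Within LPS arrays the same-numbered deviations from the group means correlated at -0.169, -0.085 and -0.341 between genotypes. Within a genotype, those of untreated and LPS arrays correlated at 0.223 to 0.327 in +/- and -0.122 to 0.195 in -/- cells. Different-numbered +/- arrays correlated at -0.305 to 0.107, and +/- array 1 had Y-linked signal both untreated and after LPS. Pairing was not borne out for all numbers, and the labels do not settle it for +/- cells. The arrays were fitted as independent, and interaction counts with such a block are given above. Promoter windows came from RefSeq sequences of build GRCm38.p6, matched by symbol for 15618 genes.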

Additional observations from a re-analysis of the deposited data

Results flagged for a closer look

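The genotype difference changed with LPS for 216 genes, by the interaction test of limma. Among the genes with the largest differences after LPS, it was more negative with LPS, at -4.36 for Tnc, -3.70 for Edn1, -3.69 for Il33, -3.59 for Lipg, -3.44 for Cxcl11, -3.31 for Ifi214, -3.12 for Tnfsf10, -3.08 for Ccnd2, -2.80 for Ifit3b, -2.73 for Iigp1, -2.67 for Ms4a4c, -2.38 for Cd69 and -2.19 for Slc28a2 (log2 differences with LPS minus without). Of the inflammatory genes fixed by name, Il6 (-2.97) and Nos2 (-2.40, adjusted p of 0.049) passed in this direction and Cxcl10 in the other. The difference was more positive with LPS by 3.49 for Rtp4, 2.78 for Cxcl10, 2.05 for Oasl2, 1.99 for Ints6l, 1.86 for Aph1b and 1.55 for Rhob. Of the genes with a more negative difference, Tnc, Edn1, Il33, Lipg, Ifi214 and Il6 were near the low end of the signal range without LPS.

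Probe sets that belong to no single gene were not used in the comparisons. After LPS 182 of 1313 probe sets with several symbols (13.9%) and 331 of 5232 with none (6.33%) differed between the genotypes, against 14.3% of those with 1 symbol.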

How the results depend on the processing

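Hdac3 was lower after LPS under each of the 21 other settings and subsets of arrays. The number of genes called after LPS (3127) stayed within 1.5 times of that value under 6 LPS arrays alone (2759), quantile (2912), cyclic loess (2707) and median centring (2861), moderated variance with trend, array weights (4440), the mean of probe sets and dim genes left out. It was 1685 to 3495 with single arrays left out. The replicate block gave 2036 genes after LPS, 279 without LPS and 70 for the interaction. Untreated calls (531) became 321 in a fit of the 6 untreated arrays and 1186 with array weights, and were 266 to 606 with single arrays left out (266 without -/- untreated array 1). Interaction calls (216) became 592 with array weights, 312 and 347 with same-numbered arrays of a genotype as a fixed or random replicate block (added after the data were seen), and were 97 to 349 with single arrays left out. They fell to 97 without -/- untreated array 1, 113 and 121 without -/- LPS arrays 3 and 1, and 126 without +/- LPS array 3, and rose to 349 without +/- LPS array 1. The cause of these changes was not tested, beyond the smaller number of arrays.

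Of 180 named genes called after LPS, 120 kept the call under every setting and subset run, 60 lost it under at least 1, and none changed sign. The medians of 8 of the 58 gene lists changed sign under a scaling, among them cholesterol synthesis (0.17 to -0.003 after cyclic loess) and cell cycle genes (0.17 to -0.003). The 3 arrays per group, and no signal of known background, limit what small differences can show.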

Other observations

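Gene families were also counted by symbol, with results known. Over all 19945 genes 9.69% were higher and 5.99% lower after LPS, and 1266 and 1441 genes after cyclic loess. Of 51 small nucleolar RNA genes, which guide chemical marks on ribosomal RNA, 22 were higher and none lower in Hdac3 -/- LPS arrays, with a median difference of 0.59 against 0.08 in untreated cells. After cyclic loess 11 were higher. Snord15a had the largest difference and read 6.13, 5.63 and 5.80 in +/- and 7.71, 6.96 and 7.52 in -/- LPS arrays (1.54 ± 0.26, adjusted p = 0.0012). All -/- arrays lay above all +/- arrays. Of 347 zinc finger genes named Zfp, 63 were higher and 12 lower, and 53 and 14 after cyclic loess. Of 69 cytosolic ribosomal protein genes 14 were higher and none lower, led by Rpl12 (1.53 ± 0.31), against 9 higher and 1 lower after cyclic loess.

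Of the immune gene families counted, 4 went the other way. Of 8 guanylate-binding protein genes 7 were lower, led by Gbp9 (9.0, 8.96 and 9.69 against 5.84, 5.36 and 5.50), a difference of -3.65 ± 0.26. Of 9 Schlafen genes 7 were lower, led by Slfn4 (11.56, 12.25 and 12.01 against 8.70, 7.97 and 8.27), a difference of -3.63 ± 0.25. Of 10 PYHIN genes, which include sensors of cytosolic DNA, 8 were lower, with a median of -2.75, and of 19 Ms4a genes 8 were lower. No member of these 4 families was called higher, and the counts were the same after cyclic loess. Their members resemble each other in sequence, and cross-hybridisation was not tested. Other families moved both ways. Of 59 Trim genes 6 were higher and 9 lower, of 11 Parp genes 2 and 5, and of 33 Clec genes 2 and 1.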
